A study of Arabidopsis thaliana with 12 samples.

Results

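The genes described here build the water-conducting tissue of the plant. They are 35 genes of Arabidopsis thaliana, picked by a rule that uses no measured value, out of 32824 genes in each expression table. They were chosen by name from what is known of xylem differentiation and secondary wall formation, with earlier results of these data known. By role they fall into 8 groups: 2 TED proteins, 5 enzymes of programmed cell death, 9 NAC and MYB regulators, 3 laccases, 3 secondary wall cellulose synthases, 8 xylan genes, 4 proteins of the wall surface and 1 thermospermine synthase. RNA was sequenced from seedlings of 3 genotypes in 2 lights. Col-0 is the wild type, *rev-5* carries an amino acid exchange in REVOLUTA (REV), a homeodomain-leucine zipper factor of vascular patterning, and *wox4* is an insertion line of *WOX4*, a homeobox gene of the vascular cambium. All seedlings stood on plates in continuous light, first in white light (WL) for 2 days, followed by 8 days of treatment either in WL, with a ratio of red to far-red light of 7.7, or in WL with added far-red light (WL+FR), with a ratio of 0.2, which imitates shade. The methods give 2 biological replicates per genotype and light, so 12 libraries in 6 groups, and the labels name no dissected organ. Each mutant was represented by 1 allele.

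Xylem vessels are files of dead, hollow cells called tracheary elements. A cell on this path expresses a NAC master switch, lays down a secondary wall of cellulose, xylan and lignin inside the primary wall, and then kills and digests itself with peptidases and nucleases that it had stored beforehand, so that only the wall remains as a pipe. In seedlings these cells occupy the narrow vascular strands of root, hypocotyl and leaf, and the study asked whether shade changes their formation.

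Levels are given in TPM, the deposited FPKM value, a fragment count scaled for transcript length and library size, rescaled to sum to 1000000 in each library, so that a level can be set against that of another gene. The bounds given with each value correspond to 7024872 to 7819639 fragments per library if they are taken as counting error. This is fewer than the read pairs stated in the study's methods, so the fragment numbers given here are estimates of precision and not counts of reads. Of the 35 genes, 30 had a mean of at least 0.5 TPM and were tested, with 1.76 to 975 fragments behind a value. Differences are log2 fold changes of TPM + 1 with their standard error (SE), fitted in limma with 1 mean for each of the 6 groups, and a gene was called where the p adjusted after Benjamini-Hochberg over all 20020 tested genes was under 0.05. With 2 libraries a group, these p-values measure only the spread between such libraries. The libraries labelled *wox4* stood out for an insertion line of that gene: *WOX4* had 112 to 149 TPM there and 1.58 to 3.93 TPM in all other libraries. These levels do not show whether the gene works in those seedlings or whether the label is right, and neither was tested. The libraries are named here by that label, and every comparison that rests on them concerns the libraries labelled *wox4*. *REV* lay between 6.0 and 7.82 TPM in all 12 libraries, which checks nothing for an allele that changes the protein.

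The xylem genes rose together in shade. Seedlings were extracted as bulk RNA, so a larger number of xylem cells and more RNA per xylem cell cannot be told apart. Averaged over the 3 genotypes, 25 of the 30 tested genes rose in WL+FR and 0 fell, where 28.1% of all 20020 tested genes rose. The median log2 fold change of the 30 genes was 0.46 and that of all tested genes 0.11, with the largest called rises in *TED7*, *LAC11*, *MC9*, *TED6* and *VND7* and the smallest called rises in the xylan genes *IRX10* and *IRX14*. In 15 of the 30 genes, or 50%, all 6 WL+FR libraries lay above all 6 WL libraries, against 12.4% of all tested genes. The changes were moderate. Under the study's stricter thresholds, a log2 fold change beyond 1 or -1 and an adjusted p below 0.01, 0 of the 30 genes were called in this mean. The study used them with DESeq2 and a test of whether the light effect in a mutant differs from Col-0, so the measures are unlike. After quantile normalization, which moved the median of all genes from 0.11 to -0.02, 19 of the 30 genes were called as higher and 0 as lower, while the calls among all genes went from 5627 higher and 1440 lower to 2723 higher and 2857 lower. The genes that lost their call there were *MYB46*, *COBL4* and the xylan genes *IRX10*, *IRX14*, *IRX15* and *GUX1*.

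**Figure D1:**
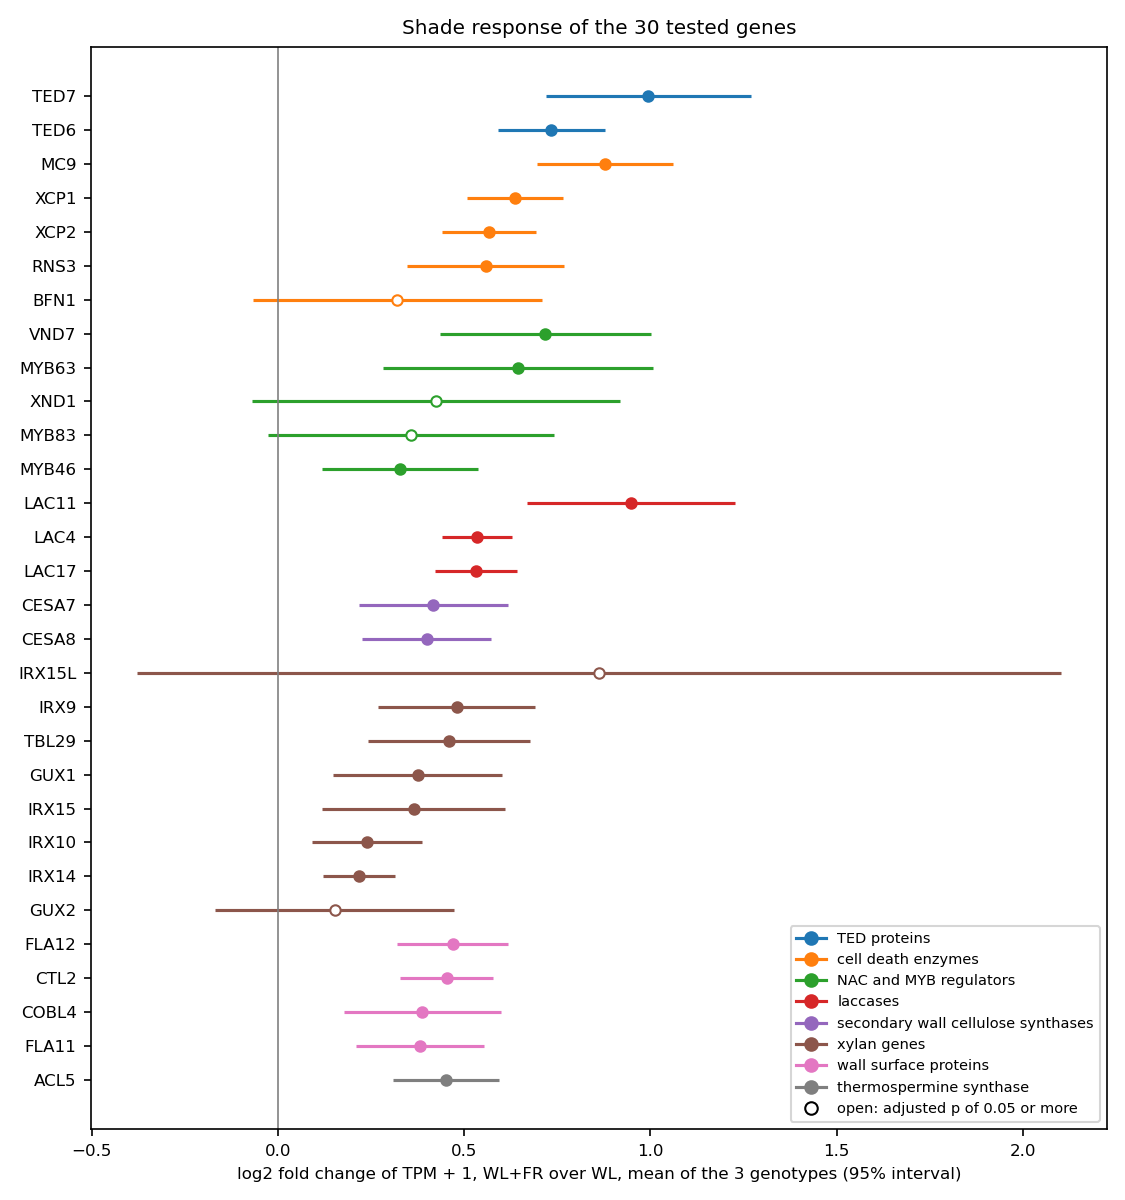
Log2 fold change of TPM + 1 between WL+FR and WL, averaged over the 3 genotypes, for the 30 tested genes, coloured by role, with 95% intervals from limma (12 libraries). All 30 estimates lie above 0, from 0.15 for *GUX2* to 0.99 for *TED7*, and the 5 open points are the genes not called, among them *IRX15L*, whose wide interval goes with a value of 0 in 1 library.

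Both TED genes were among the strongest responders. *TED6* and *TED7* encode small plasma membrane proteins of differentiating vessel elements, named TRACHEARY ELEMENT DIFFERENTIATION-RELATED, and TED6 binds a subunit of the secondary wall cellulose synthase. *TED6* (AT1G43790, chromosome 1, 16575759 to 16576541) had 47.9 and 47.7 TPM in Col-0 WL, 78.7 and 66.6 TPM in *rev-5* WL and 74.0 and 80.2 TPM in *wox4* WL, and 110.4 and 86.1 TPM in Col-0 WL+FR, 114 and 109 TPM in *rev-5* WL+FR and 112 and 118 TPM in *wox4* WL+FR. *TED7* (AT5G48920, chromosome 5, 19835337 to 19836258) had 13.1 and 18.1 TPM in Col-0 WL, 38.9 and 30.7 TPM in *rev-5* WL and 30.6 and 36.3 TPM in *wox4* WL, and 60.8 and 39.2 TPM in Col-0 WL+FR, 53.0 and 56.5 TPM in *rev-5* WL+FR and 60.7 and 51.9 TPM in *wox4* WL+FR. In both genes each WL+FR library was above each WL library, and within WL the 2 Col-0 libraries were the lowest of the 6. The mean shade response was 0.73 (SE 0.06, adjusted p = 1.95e-05 in limma) for *TED6* and 0.99 (SE 0.12, adjusted p = 0.000186 in limma) for *TED7*. The summed level of both genes was 61.0 to 65.8 TPM in Col-0 WL, 97.3 to 118 TPM in *rev-5* WL, 104.7 to 116 TPM in *wox4* WL and 125 to 172 TPM over the 6 WL+FR libraries.

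Of the 5 cell death enzymes, 4 rose in shade, where 28.1% of all tested genes rose. XCP1 and XCP2 are papain-like peptidases of the vacuole that degrade the cell content of vessel elements. *XCP1* (AT4G35350, chromosome 4, 16810482 to 16812077) had 29.4 and 26.8 TPM in Col-0 WL, 43.9 and 43.8 TPM in *rev-5* WL and 40.9 and 46.6 TPM in *wox4* WL, and 60.7 and 50.1 TPM in Col-0 WL+FR, 58.3 and 62.7 TPM in *rev-5* WL+FR and 64.8 and 60.0 TPM in *wox4* WL+FR. *XCP2* (AT1G20850, chromosome 1, 7252111 to 7253747) had 54.2 and 46.0 TPM in Col-0 WL, 65.6 and 58.4 TPM in *rev-5* WL and 67.4 and 69.6 TPM in *wox4* WL, and 93.2 and 82.7 TPM in Col-0 WL+FR, 86.2 and 93.3 TPM in *rev-5* WL+FR and 84.5 and 93.4 TPM in *wox4* WL+FR. All WL+FR libraries were above all WL libraries in both, with mean responses of 0.64 (SE 0.06, adjusted p = 2.34e-05 in limma) and 0.57 (SE 0.06, adjusted p = 4.34e-05 in limma). *MC9* (AT5G04200, chromosome 5, 1153740 to 1155040) encodes METACASPASE 9, a protease that takes part in the clearing of dead vessel elements. It had 12.9 and 12.9 TPM in Col-0 WL, 28.6 and 23.9 TPM in *rev-5* WL and 24.8 and 24.5 TPM in *wox4* WL, and 38.5 and 27.1 TPM in Col-0 WL+FR, 43.0 and 44.9 TPM in *rev-5* WL+FR and 37.9 and 40.4 TPM in *wox4* WL+FR, and rose by 0.88 (SE 0.08, adjusted p = 2.93e-05 in limma). Here Col-0 WL+FR replicate 4, at 27.1 TPM, lay within the range of the *rev-5* WL libraries, while both Col-0 WL libraries were far below all others. *RNS3* (AT1G26820), a ribonuclease, was low but followed the same order, with 3.56 and 5.03 TPM in Col-0 WL, 5.31 and 6.11 TPM in *rev-5* WL and 5.98 and 7.46 TPM in *wox4* WL, and 8.44 and 7.78 TPM in Col-0 WL+FR, 8.53 and 8.38 TPM in *rev-5* WL+FR and 8.16 and 9.92 TPM in *wox4* WL+FR and a response of 0.56 (SE 0.09, adjusted p = 0.00138 in limma). *BFN1* (AT1G11190), a bifunctional nuclease, was the exception, at 0.637 to 2.0 TPM in WL and 1.22 to 3.68 TPM in WL+FR, with 0.32 (SE 0.17, adjusted p = 0.185 in limma).

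**Figure D2:**
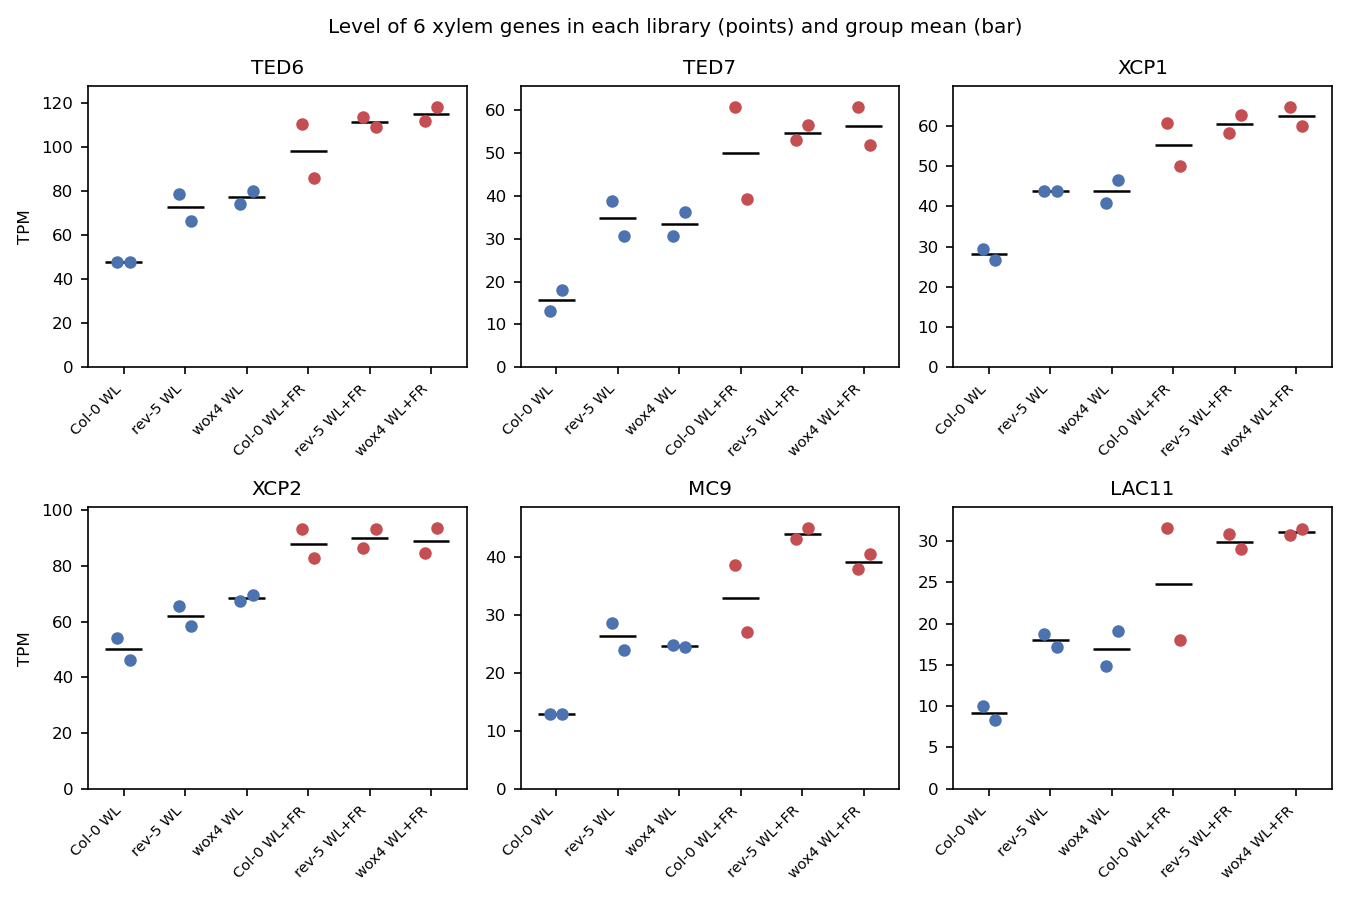
TPM of *TED6*, *TED7*, *XCP1*, *XCP2*, *MC9* and *LAC11* in each of the 12 libraries (points, 2 per group; blue WL, red WL+FR) with the mean of each group (bar); *wox4* is the label of the libraries. In all 6 genes both Col-0 WL libraries are the lowest, for *MC9* 12.9 and 12.9 TPM, and of the Col-0 WL+FR libraries replicate 4 is the lower one, which in *MC9* and *LAC11* lies below the highest WL library.

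The sequence before the start of these genes was read from the TAIR10.1 genome to look for an element known from vessel genes. This element, the tracheary-element-regulating element, is spelled CTTNAAAGCNA and was described in the promoter of a cysteine peptidase gene of Zinnia. Within 500 bases before the annotated start, on either strand, it was present in 4 of the 35 genes (11.4%), *XCP1*, *MC9*, *FLA11* and *CESA4*, and in 197 of 27443 protein-coding genes (0.718%). Of the 5 cell death genes *XCP2*, *RNS3* and *BFN1* did not have these letters in that window, and *TED6* did not either. The 250 bases before the start are printed 5′ to 3′ for *XCP1* and *MC9*, which hold it, and for *XCP2* and *TED6*, which rose in shade and do not, all on the + strand and free of other annotated genes, with the element in capitals. They cover chr4:16810232-16810481 for *XCP1*, chr5:1153490-1153739 for *MC9*, chr1:7251861-7252110 for *XCP2* and chr1:16575509-16575758 for *TED6*.
XCP1: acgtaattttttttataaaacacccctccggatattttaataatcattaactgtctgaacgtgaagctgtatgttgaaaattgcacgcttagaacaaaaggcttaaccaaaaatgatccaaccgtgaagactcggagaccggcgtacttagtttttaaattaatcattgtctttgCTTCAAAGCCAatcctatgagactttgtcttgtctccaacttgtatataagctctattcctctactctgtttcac
MC9: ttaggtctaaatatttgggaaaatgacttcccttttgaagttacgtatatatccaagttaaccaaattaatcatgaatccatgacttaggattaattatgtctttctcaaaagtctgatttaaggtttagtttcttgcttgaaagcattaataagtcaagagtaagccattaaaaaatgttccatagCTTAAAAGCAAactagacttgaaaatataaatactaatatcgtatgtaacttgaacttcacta
XCP2: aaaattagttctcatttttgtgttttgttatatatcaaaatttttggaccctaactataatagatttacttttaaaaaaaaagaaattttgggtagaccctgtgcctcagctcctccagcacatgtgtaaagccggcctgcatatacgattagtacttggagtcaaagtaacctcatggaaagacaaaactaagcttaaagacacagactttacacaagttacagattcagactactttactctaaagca
TED6: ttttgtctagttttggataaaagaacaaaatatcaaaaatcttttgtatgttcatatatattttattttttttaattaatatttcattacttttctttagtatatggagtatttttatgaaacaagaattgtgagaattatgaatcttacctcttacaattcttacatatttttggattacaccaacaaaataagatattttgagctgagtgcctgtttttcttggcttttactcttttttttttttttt
The element lies on the strand of the gene at positions -75 to -65 from the start in *XCP1* and -63 to -53 in *MC9*. In *FLA11* it was at -204 to -194 and in *CESA4* at -20 to -10. The binding site of MYB46 and MYB83, ACC followed by A or T, A, A or C, and C or T (8 spellings, either strand), was in the same window of 22 of the 35 genes (62.9%) and of 49.2% of protein-coding genes, and overlapped no match of the first element. These matches describe letters only and no binding was measured.

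The NAC and MYB regulators that switch on the program were at the lower end of expression. *VND7* (AT1G71930), the NAC master switch of protoxylem vessels, had 0.481 and 0.696 TPM in Col-0 WL, 0.433 and 0.811 TPM in *rev-5* WL and 0.970 and 1.39 TPM in *wox4* WL, and 2.19 and 1.89 TPM in Col-0 WL+FR, 1.33 and 1.92 TPM in *rev-5* WL+FR and 2.21 and 2.02 TPM in *wox4* WL+FR. Each Col-0 WL+FR library was above both Col-0 WL libraries, and the mean response was 0.72 (SE 0.13, adjusted p = 0.00173 in limma), but only 3 to 23 fragments lay behind a value. *MYB63* (AT1G79180), an activator of lignin genes, had 2.28 and 4.55 TPM in Col-0 WL, 2.69 and 4.19 TPM in *rev-5* WL and 3.29 and 3.16 TPM in *wox4* WL, and 5.32 and 6.12 TPM in Col-0 WL+FR, 5.09 and 6.57 TPM in *rev-5* WL+FR and 6.96 and 4.50 TPM in *wox4* WL+FR, and rose by 0.64 (SE 0.16, adjusted p = 0.0118 in limma). *MYB46* (AT5G12870), a MYB factor directly downstream of the NAC switches, had 4.59 and 4.37 TPM in Col-0 WL, 3.54 and 5.32 TPM in *rev-5* WL and 3.01 and 2.77 TPM in *wox4* WL, and 5.84 and 6.07 TPM in Col-0 WL+FR, 4.77 and 5.20 TPM in *rev-5* WL+FR and 4.20 and 4.66 TPM in *wox4* WL+FR. Its rise of 0.33 (SE 0.09, adjusted p = 0.0211 in limma) lost its call in the mean over Col-0 and *rev-5* alone. The call of *MYB46* was also lost without any 1 of *wox4* WL replicate 6, *wox4* WL+FR replicate 8, Col-0 WL replicate 2 and *rev-5* WL+FR replicate 12. Its partner *MYB83* (AT3G08500), at 0.713 to 2.09 TPM, and *XND1* (AT5G64530), a NAC factor that restrains xylem differentiation, at 0.317 to 2.52 TPM, were not called.

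The other 4 regulators could not be followed. *VND6* (AT5G62380), the switch of metaxylem vessels, *SND1* (AT1G32770), the switch of fibres, and *MYB58* (AT1G16490), the relative of *MYB63*, were listed at 0 in all 12 libraries, and *NST1* (AT2G46770), which acts with SND1, was listed at 0 in 10 libraries and had a mean of 0.0158 TPM. A value of 0 in these tables does not show absence of the transcript. *VND6* overlaps *BAG7* of the opposite strand by 77 bases, a gene at 94.6 to 112 TPM, and *MYB58* lies within the antisense gene AT1G16489, at 0 to 4.82 TPM. No overlap with another gene was found for *SND1*. *ACL5*, above 0 in all libraries, shares 196 bases with *MSL9*, at 4.35 to 9.80 TPM. *IRX15L*, listed at 0 in 1 library, shares 37 bases with AT5G67220, at 72.2 to 87.4 TPM. Whether such overlaps bear on the zeros was not tested, and whether fragments were counted by strand is not given in the sources used here.

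All 3 laccases, enzymes that oxidise monolignols so that they polymerise to lignin, rose, beside 28.1% of all tested genes. *LAC11* (AT5G03260, chromosome 5, 777021 to 779424) had 10.1 and 8.34 TPM in Col-0 WL, 18.8 and 17.2 TPM in *rev-5* WL and 14.8 and 19.1 TPM in *wox4* WL, and 31.5 and 18.0 TPM in Col-0 WL+FR, 30.9 and 29.0 TPM in *rev-5* WL+FR and 30.8 and 31.5 TPM in *wox4* WL+FR, a response of 0.95 (SE 0.12, adjusted p = 0.000278 in limma). Its Col-0 WL+FR libraries differed by a wide margin, and replicate 4 lay among the WL libraries of *rev-5* and of the label *wox4*. *LAC4* (AT2G38080) had 17.2 and 19.0 TPM in Col-0 WL, 20.7 and 19.8 TPM in *rev-5* WL and 22.1 and 21.2 TPM in *wox4* WL, and 28.5 and 28.0 TPM in Col-0 WL+FR, 31.1 and 29.0 TPM in *rev-5* WL+FR and 30.3 and 29.0 TPM in *wox4* WL+FR. *LAC17* (AT5G60020) had 15.4 and 17.8 TPM in Col-0 WL, 14.3 and 15.1 TPM in *rev-5* WL and 18.9 and 17.1 TPM in *wox4* WL, and 24.5 and 23.6 TPM in Col-0 WL+FR, 23.4 and 24.5 TPM in *rev-5* WL+FR and 24.1 and 24.4 TPM in *wox4* WL+FR. In *LAC4* and *LAC17* the lights did not overlap, and their responses, 0.53 (SE 0.04, adjusted p = 8.98e-06 in limma) and 0.53 (SE 0.05, adjusted p = 3.03e-05 in limma), were nearly alike. *LAC17* shares 2266 bases with an antisense gene that was listed at 0 in all libraries.

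The secondary wall cellulose synthases CESA4, CESA7 and CESA8 work as the 3 different subunits of 1 complex, yet their listed levels differed. *CESA4* (AT5G44030) was listed at 0 in all 12 libraries. The table's model of *CESA4* overlaps a gene at 516 to 582 TPM, AT5G44020, by 17 bases and a second one, AT5G44040, by 65 bases, and whether this bears on the zeros was not tested. *CESA7* (AT5G17420) had 5.80 and 5.41 TPM in Col-0 WL, 5.79 and 4.18 TPM in *rev-5* WL and 5.20 and 4.64 TPM in *wox4* WL, and 6.93 and 7.90 TPM in Col-0 WL+FR, 7.25 and 5.94 TPM in *rev-5* WL+FR and 7.91 and 7.46 TPM in *wox4* WL+FR. *CESA8* (AT4G18780) had 5.16 and 5.57 TPM in Col-0 WL, 4.81 and 5.10 TPM in *rev-5* WL and 5.38 and 5.47 TPM in *wox4* WL, and 7.23 and 7.29 TPM in Col-0 WL+FR, 8.08 and 6.71 TPM in *rev-5* WL+FR and 6.27 and 8.0 TPM in *wox4* WL+FR. The lights did not overlap in either gene. Shade raised *CESA7* by 0.42 (SE 0.09, adjusted p = 0.00511 in limma) and *CESA8* by 0.40 (SE 0.08, adjusted p = 0.00293 in limma). Of the 5 cellulose synthases of the primary wall 2 were called as higher, with a median of 0.05, where 28.1% of all tested genes rose. Of the 14 enzymes of monolignol synthesis, which supply the lignin precursors, 12 were called as higher in shade and 1 as lower, with a median of 0.37. In *rev-5* WL, 3 of the 14 were higher than in Col-0 WL, where 2.61% of all tested genes were higher.

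Of the 8 genes that make or decorate xylan, 6 rose, beside 28.1% of all tested genes, and all 6 by less than the TED genes. After quantile normalization *IRX9* and *TBL29* kept their call, whereas *IRX10*, *IRX14*, *IRX15* and *GUX1* lost it. IRX9, IRX10 and IRX14 build the xylan backbone. *IRX9* (AT2G37090) had 4.45 and 5.62 TPM in Col-0 WL, 4.80 and 6.27 TPM in *rev-5* WL and 5.49 and 5.04 TPM in *wox4* WL, and 7.67 and 8.12 TPM in Col-0 WL+FR, 8.92 and 7.03 TPM in *rev-5* WL+FR and 6.85 and 7.87 TPM in *wox4* WL+FR, and rose by 0.48 (SE 0.09, adjusted p = 0.00314 in limma). *IRX10* (AT1G27440) had 10.3 and 11.7 TPM in Col-0 WL, 11.1 and 12.3 TPM in *rev-5* WL and 10.8 and 12.7 TPM in *wox4* WL, and 14.0 and 15.2 TPM in Col-0 WL+FR, 11.6 and 13.5 TPM in *rev-5* WL+FR and 14.2 and 13.9 TPM in *wox4* WL+FR. *IRX14* (AT4G36890), the most abundant xylan gene here, had 23.7 and 23.5 TPM in Col-0 WL, 23.3 and 20.8 TPM in *rev-5* WL and 21.2 and 22.0 TPM in *wox4* WL, and 24.2 and 25.6 TPM in Col-0 WL+FR, 27.9 and 25.7 TPM in *rev-5* WL+FR and 26.8 and 27.1 TPM in *wox4* WL+FR. Their responses were small, 0.24 (SE 0.07, adjusted p = 0.0179 in limma) and 0.22 (SE 0.04, adjusted p = 0.00347 in limma). In *IRX14* the lights did not overlap, but its response was as low as 0.08 among the alternative settings. The call of *IRX10* was lost in the mean over Col-0 and *rev-5* alone and without Col-0 WL replicate 1 or *rev-5* WL+FR replicate 12.

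TBL29 adds acetyl groups to xylan and GUX1 and GUX2 add glucuronic acid. *TBL29* (AT3G55990) had 7.61 and 7.01 TPM in Col-0 WL, 7.69 and 6.25 TPM in *rev-5* WL and 8.55 and 8.04 TPM in *wox4* WL, and 14.2 and 9.68 TPM in Col-0 WL+FR, 9.60 and 9.66 TPM in *rev-5* WL+FR and 11.7 and 9.87 TPM in *wox4* WL+FR, with no overlap between the lights and a response of 0.46 (SE 0.10, adjusted p = 0.00475 in limma). *GUX1* (AT3G18660) had 3.49 and 3.07 TPM in Col-0 WL, 2.76 and 2.06 TPM in *rev-5* WL and 2.84 and 3.49 TPM in *wox4* WL, and 4.22 and 3.23 TPM in Col-0 WL+FR, 4.76 and 5.20 TPM in *rev-5* WL+FR and 3.35 and 4.02 TPM in *wox4* WL+FR. Its lights overlapped in Col-0, and its mean response was 0.38 (SE 0.10, adjusted p = 0.0166 in limma), with 0.82 in *rev-5* alone. *GUX2* (AT4G33330), at 1.80 to 4.26 TPM in WL and 2.30 to 3.40 TPM in WL+FR, was not called.

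IRX15 and IRX15L are a pair of proteins needed for normal xylan. *IRX15* (AT3G50220) had 4.62 and 5.40 TPM in Col-0 WL, 5.17 and 3.61 TPM in *rev-5* WL and 5.45 and 4.58 TPM in *wox4* WL, and 6.03 and 5.31 TPM in Col-0 WL+FR, 7.11 and 5.71 TPM in *rev-5* WL+FR and 6.33 and 8.46 TPM in *wox4* WL+FR, a response of 0.36 (SE 0.11, adjusted p = 0.0276 in limma). Its call was lost when any 1 of 6 libraries was left out, namely Col-0 WL replicate 1, Col-0 WL+FR replicate 3, *wox4* WL replicate 6, *wox4* WL+FR replicate 8, *rev-5* WL replicate 10 or *rev-5* WL+FR replicate 11. It was also lost in the mean over Col-0 and *rev-5* alone. *IRX15L* (AT5G67210) was listed at 0 in Col-0 WL replicate 1 and at 16.0 TPM in Col-0 WL replicate 2. Its other WL libraries lay between 12.4 and 15.6 TPM and its WL+FR libraries between 15.1 and 19.9 TPM, and it was not called. Its fitted differences from Col-0 WL rest on that 0 and are not read further. With Col-0 WL replicate 2 left out, so that the 0 stood alone for Col-0 WL, *IRX15L* was called in shade in the mean and in Col-0, and against Col-0 WL in *rev-5* and the libraries labelled *wox4*, and it was then the 1 gene of the 30 called in each difference of shade responses.

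All 4 genes of wall surface proteins rose, beside 28.1% of all tested genes. FLA11 and FLA12 are fasciclin-like arabinogalactan proteins of stems, COBL4 is a COBRA-like protein anchored to the membrane, and CTL2 is a chitinase-like protein needed for cellulose deposition. *FLA11* (AT5G03170) had 53.5 and 49.8 TPM in Col-0 WL, 44.9 and 38.3 TPM in *rev-5* WL and 46.5 and 46.3 TPM in *wox4* WL, and 73.1 and 52.4 TPM in Col-0 WL+FR, 57.6 and 55.3 TPM in *rev-5* WL+FR and 61.7 and 66.2 TPM in *wox4* WL+FR, and replicate 4 of Col-0 WL+FR lay between both Col-0 WL libraries. *FLA12* (AT5G60490) had 8.09 and 8.64 TPM in Col-0 WL, 7.67 and 6.78 TPM in *rev-5* WL and 7.88 and 8.28 TPM in *wox4* WL, and 11.4 and 12.4 TPM in Col-0 WL+FR, 10.9 and 9.78 TPM in *rev-5* WL+FR and 12.8 and 10.7 TPM in *wox4* WL+FR. *CTL2* (AT3G16920) had 21.0 and 23.2 TPM in Col-0 WL, 24.9 and 27.3 TPM in *rev-5* WL and 24.0 and 24.0 TPM in *wox4* WL, and 34.3 and 29.3 TPM in Col-0 WL+FR, 36.8 and 32.1 TPM in *rev-5* WL+FR and 33.8 and 33.3 TPM in *wox4* WL+FR. In *FLA12* and *CTL2* the lights were fully apart. *COBL4* (AT5G15630) had 2.91 and 2.89 TPM in Col-0 WL, 4.30 and 4.47 TPM in *rev-5* WL and 3.75 and 3.41 TPM in *wox4* WL, and 6.05 and 4.24 TPM in Col-0 WL+FR, 4.58 and 5.63 TPM in *rev-5* WL+FR and 4.98 and 4.70 TPM in *wox4* WL+FR, and its highest WL library exceeded its lowest WL+FR library. The mean responses were close to each other, from 0.38 (SE 0.08, adjusted p = 0.00366 in limma) in *FLA11* and 0.39 (SE 0.09, adjusted p = 0.00972 in limma) in *COBL4* to 0.45 (SE 0.06, adjusted p = 0.000182 in limma) in *CTL2* and 0.47 (SE 0.07, adjusted p = 0.000471 in limma) in *FLA12*. The call of *COBL4* was lost after quantile normalization. *ACL5* (AT5G19530), the thermospermine synthase that restrains vessel differentiation, had 10.9 and 11.8 TPM in Col-0 WL, 10.9 and 10.9 TPM in *rev-5* WL and 9.05 and 11.4 TPM in *wox4* WL, and 15.1 and 16.3 TPM in Col-0 WL+FR, 13.4 and 13.7 TPM in *rev-5* WL+FR and 16.9 and 15.5 TPM in *wox4* WL+FR. It too rose without overlap, by 0.45 (SE 0.06, adjusted p = 0.000435 in limma).

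A second list of 55 genes of the same pathway gave a similar direction. Of its 50 tested genes, 24 rose and 0 fell in the mean shade response, where 28.1% of all tested genes rose, with a median of 0.27. Among 25 further transcription factors of xylem, 13 rose, for example the homeodomain factor *BLH6* from a median of 37.8 TPM over the WL libraries to 58.2 TPM over the WL+FR libraries, and *VNI2*, a NAC factor that binds and restrains VND7, from 50.4 to 63.0 TPM. Of 11 further xylan genes 3 rose, near the share of all tested genes, led by *FRA8*, from 19.2 to 28.5 TPM. Of 6 further enzymes of lignin polymerisation 5 rose, among them the peroxidases *PRX72*, from 35.1 to 59.2 TPM, and *PRX25*, from 7.78 to 16.8 TPM. Of 8 proteins of wall patterning and microtubules 3 rose, not far from the share of all tested genes. Among them *WAT1*, an auxin transporter of the vacuole membrane needed for fibre walls, went from 130 to 261 TPM, a log2 fold change of 0.995 (SE 0.03, adjusted p = 1.70e-08 in limma). Of the 55 genes, named here for their zeros, *GAUT12*, *GXM3* and *RWA3* were listed at 0 in all 12 libraries, *NST2* in 11, *PRX52* in 3 and *LAC12* in 1.

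Within single genotypes fewer calls were made. In Col-0 17 of the 30 genes rose in shade, where 13.3% of all tested genes rose. In *rev-5* 11 of the 30 rose, where 11% of all tested genes rose, and in the libraries labelled *wox4* 14 of the 30, where 15.4% of all tested genes rose. In each genotype 0 of the 30 fell. The medians of the 30 genes were 0.54, 0.46 and 0.44 in the same order, with 0.08, 0.11 and 0.13 for all tested genes. The 8 genes called in each of the 3 genotypes were *TED6*, *XCP1*, *XCP2*, *MC9*, *LAC4*, *LAC17*, *FLA12* and *CTL2*, and 22 were called in at least 1. These counts lean on single libraries. That of Col-0 was 8 without Col-0 WL replicate 1 and 9 without Col-0 WL+FR replicate 3, that of *rev-5* was 2, 4 and 5 without replicates 10, 11 and 12, and that of the libraries labelled *wox4* was 4, 6, 4 and 5 without replicates 5, 6, 7 and 8.

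The study also asked how the vascular mutants differ from wild type. In WL, 5 of the 30 genes were higher in *rev-5* than in Col-0 and 0 were lower, where 2.61% of all tested genes were higher. They were *TED7*, with 1.11 (SE 0.21, adjusted p = 0.0174 in limma), *MC9*, with 0.97 (SE 0.14, adjusted p = 0.00459 in limma), *LAC11*, with 0.90 (SE 0.21, adjusted p = 0.0472 in limma), *XCP1*, with 0.62 (SE 0.10, adjusted p = 0.00690 in limma), and *TED6*, with 0.59 (SE 0.11, adjusted p = 0.0170 in limma). In the libraries labelled *wox4*, which were set against the same Col-0 WL libraries, 2 of the 30 were higher and 0 lower, where 0.165% of all tested genes were higher: *MC9*, with 0.88 (SE 0.14, adjusted p = 0.0476 in limma), and *XCP1*, with 0.62 (SE 0.10, adjusted p = 0.0476 in limma). *TED6* and *TED7* had log2 fold changes of 0.68 and 1.06 there with adjusted p of 0.0530 and 0.105 in limma. The study, whose methods name DESeq2 and not limma, reported *TED7* as upregulated in both mutants. All 4 WL libraries of *rev-5* and of the label *wox4* lay above both Col-0 WL libraries in 10 of the 30 genes (33.3%), *TED6*, *TED7*, *XCP1*, *XCP2*, *RNS3*, *MC9*, *LAC4*, *LAC11*, *COBL4* and *CTL2*, and in 10.1% of all tested genes.

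By role, the calls in *rev-5* WL were both TED genes, 2 of the 5 cell death genes and 1 of the 3 laccases, and in the libraries labelled *wox4* 2 of the 5 cell death genes. In *rev-5* WL, 0 of 2 tested cellulose synthases, 0 of 8 xylan genes, 0 of 4 wall surface genes and 0 of 5 tested regulators were called, nor was *ACL5*, and beside 2.61% among all tested genes a count of 0 in so few genes is near the background. The median log2 fold change there was 0.85 for the TED genes, 0.35 for the cell death genes, 0.16 for the laccases, 0.02 for the regulators, 0.02 for the wall surface genes, 0.01 for the xylan genes and -0.13 for the cellulose synthases, and *ACL5* had -0.05. In the libraries labelled *wox4* the same medians were 0.87, 0.55, 0.25, -0.06, 0.04, 0.03 and -0.07, and *ACL5* had -0.14. A difference between the roles was not tested. Of the 5 calls in *rev-5* WL, *MC9* kept its call whichever library was left out, whereas *LAC11* lost it in 10 of 12 cases. The number of calls was 2 without Col-0 WL replicate 1, 3 without Col-0 WL replicate 2, *IRX15L* with its 0 among them, 1 without *rev-5* WL replicate 9, 2 without *rev-5* WL replicate 10 and 2 in a fit without a trend in the spread. Both calls in the libraries labelled *wox4* were just under the threshold, and both were lost in 10 of the 12 fits that left out 1 library, without the filter on low values, in FPKM, after quantile normalization and without the trend.

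**Figure D3:**
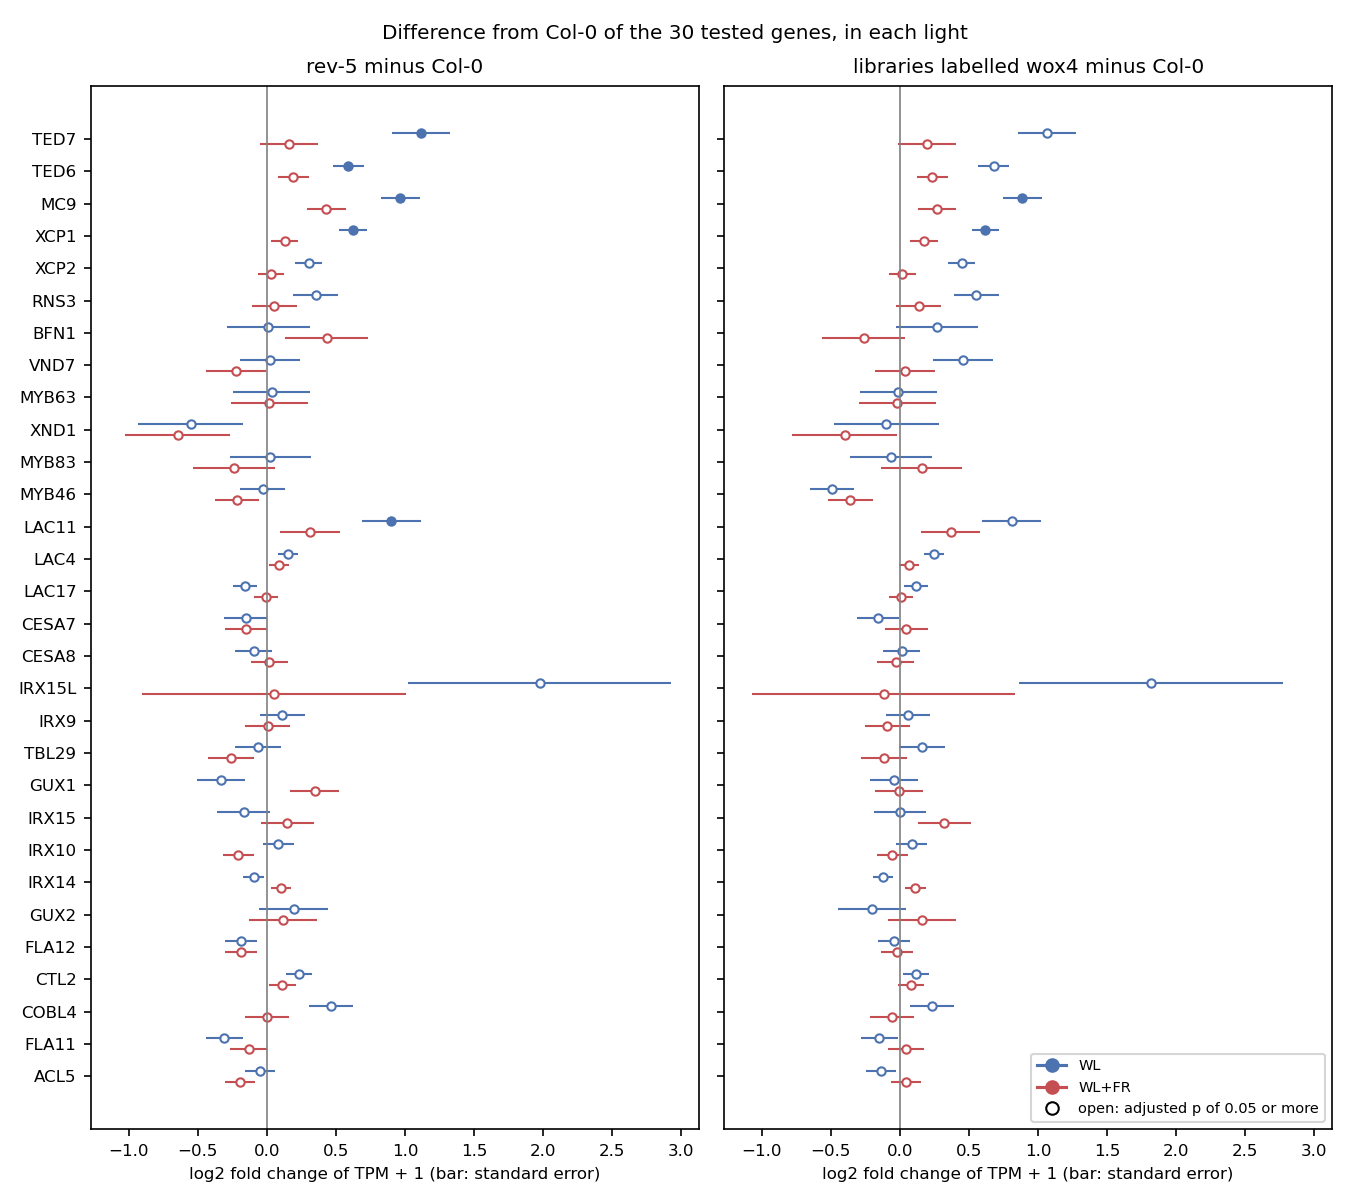
Log2 fold change of TPM + 1 of *rev-5* (left) and of the libraries labelled *wox4* (right) against Col-0, in WL (blue) and in WL+FR (red), for the 30 tested genes, with standard errors from limma (2 libraries per group). In WL the TED genes, *MC9*, *XCP1* and *LAC11* stand to the right of 0, from 0.59 to 1.11 in *rev-5*, in WL+FR the same genes lie between 0.13 and 0.43 there, and *IRX15L* in WL reflects 1 Col-0 library at 0.

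In WL+FR no xylem gene was called between Col-0 and *rev-5* or the libraries labelled *wox4*. Of the 30 genes, 0 were called between *rev-5* and Col-0, where 3.54% of all tested genes were called in either direction, and for the libraries labelled *wox4* against Col-0 again 0, where 1.05% of all tested genes were called. By the unadjusted p under 0.05 from limma, 1 gene, *MC9*, passed in *rev-5* and 0 passed in the libraries labelled *wox4*, where 17% and 14.5% of all tested genes passed. *TED7* differed from Col-0 by 0.16 in *rev-5* (95% interval -0.32 to 0.64) and by 0.20 in *wox4* (-0.28 to 0.67), so that a difference of moderate size in either direction was within these errors. All 4 WL+FR libraries of *rev-5* and of the label *wox4* were above both Col-0 WL+FR libraries in 2 of the 30 genes (6.67%), *LAC4* and *IRX14*, and in 15.4% of all tested genes. Col-0 WL+FR replicate 3 exceeded replicate 4 in 19 of the 30 genes and in 40.4% of all tested genes, and without replicate 3 *MC9* was called as higher in *rev-5* WL+FR.

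The difference of the shade responses was then taken as its own test. In *rev-5* against Col-0, 0 of the 30 genes were called, where 0.395% of all tested genes were called, and in the libraries labelled *wox4* against Col-0 0 of the 30 were called, where 0.105% of all tested genes were called. At an unadjusted p under 0.05 in limma, 5 of the 30 passed in each, where 9.19% of all tested genes passed for *rev-5* and 6.93% for the libraries labelled *wox4*. In *rev-5* these were *TED6*, *TED7*, *XCP1* and *MC9*, with smaller responses than in Col-0, and *GUX1*, with a larger one. In the libraries labelled *wox4* they were *TED6*, *TED7*, *XCP1*, *XCP2* and *MC9*, all with smaller responses. Both sets rest on the same 4 Col-0 libraries. *TED7* responded by 1.60 in Col-0, but by 0.65 and 0.73 in *rev-5* and the libraries labelled *wox4*, and the differences from Col-0 were -0.95 (95% interval -1.63 to -0.28, adjusted p = 0.344 in limma) and -0.87 (95% interval -1.54 to -0.19, adjusted p = 0.604 in limma). For *CESA7* the same differences were 0.00 (95% interval -0.49 to 0.49) and 0.20 (95% interval -0.28 to 0.69).

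Markers of other tissues moved with the light as well, in a mean shade response where 28.1% of all tested genes rose. Of 7 root endodermis genes 6 rose, with a median of 0.72 and a summed level of 92.9 to 126 TPM in WL and 164 to 199 TPM in WL+FR. All 6 cambium genes rose, with a median of 0.30, and 4 of 7 tested phloem genes, with a median of 0.21 and sums of 237 to 261 TPM in WL and 284 to 325 TPM in WL+FR. Of 4 root hair genes 1 rose, at sums of 16.4 to 27.7 TPM in WL and 17.1 to 39.3 TPM in WL+FR. Of 5 mesophyll genes 2 rose and 2 fell, and of 4 epidermis genes 2 rose and 1 fell. The part of tissue proportions in the shade response of the xylem genes was not tested. Of these marker genes 1, *ESB1* of the endodermis, was listed at 0 in any library, namely in 10.

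In WL, 935 of all 20020 tested genes were called in *rev-5* against Col-0 and 53 in the libraries labelled *wox4* against Col-0. Calls among the markers differed by list. Of the 7 endodermis genes 0 were called in either comparison, of the 7 phloem genes 0 in either, of the 4 root hair genes 0 in either, and of the 6 cambium genes 0 in *rev-5* and 1 in *wox4*, *WOX4* itself. Of the 5 mesophyll genes 2 were higher in each comparison, and of the 4 epidermis genes 1 was lower in *rev-5*. The summed cell death genes were at 91.8 to 101 TPM in Col-0 WL, 133 to 145 TPM in *rev-5* WL and 141 to 149.8 TPM in *wox4* WL. The summed endodermis level was 92.9 to 126 TPM in Col-0, 108 to 122 TPM in *rev-5* and 98.6 to 112 TPM in *wox4*, within the Col-0 range. This sum includes *ESB1*, which was listed at 0 in 10 libraries and reached 11.9 TPM elsewhere, so the range depends in part on that gene. Other sums lay at least in part outside the Col-0 range. Phloem markers summed to 252 to 254 TPM in Col-0, 237 to 245 TPM in *rev-5* and 257 to 261 TPM in *wox4*, and mesophyll markers to 18877 to 18981 TPM, 20557 to 20786 TPM and 20085 to 20561 TPM in the same order. Cambium markers summed to 56.7 to 58.0 TPM in Col-0, 50.8 to 51.8 TPM in *rev-5* and, with *WOX4* among them, 162 to 166 TPM in *wox4*. Root hair markers were at 18.5 to 24.1 TPM in Col-0, 25.0 to 27.7 TPM in *rev-5* and 16.4 to 19.8 TPM in *wox4*, and epidermis markers at 759.6 to 769.8 TPM, 603.9 to 604.1 TPM and 723 to 736 TPM. The part of these differences in those of the xylem genes was not tested.

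**Figure D4:**
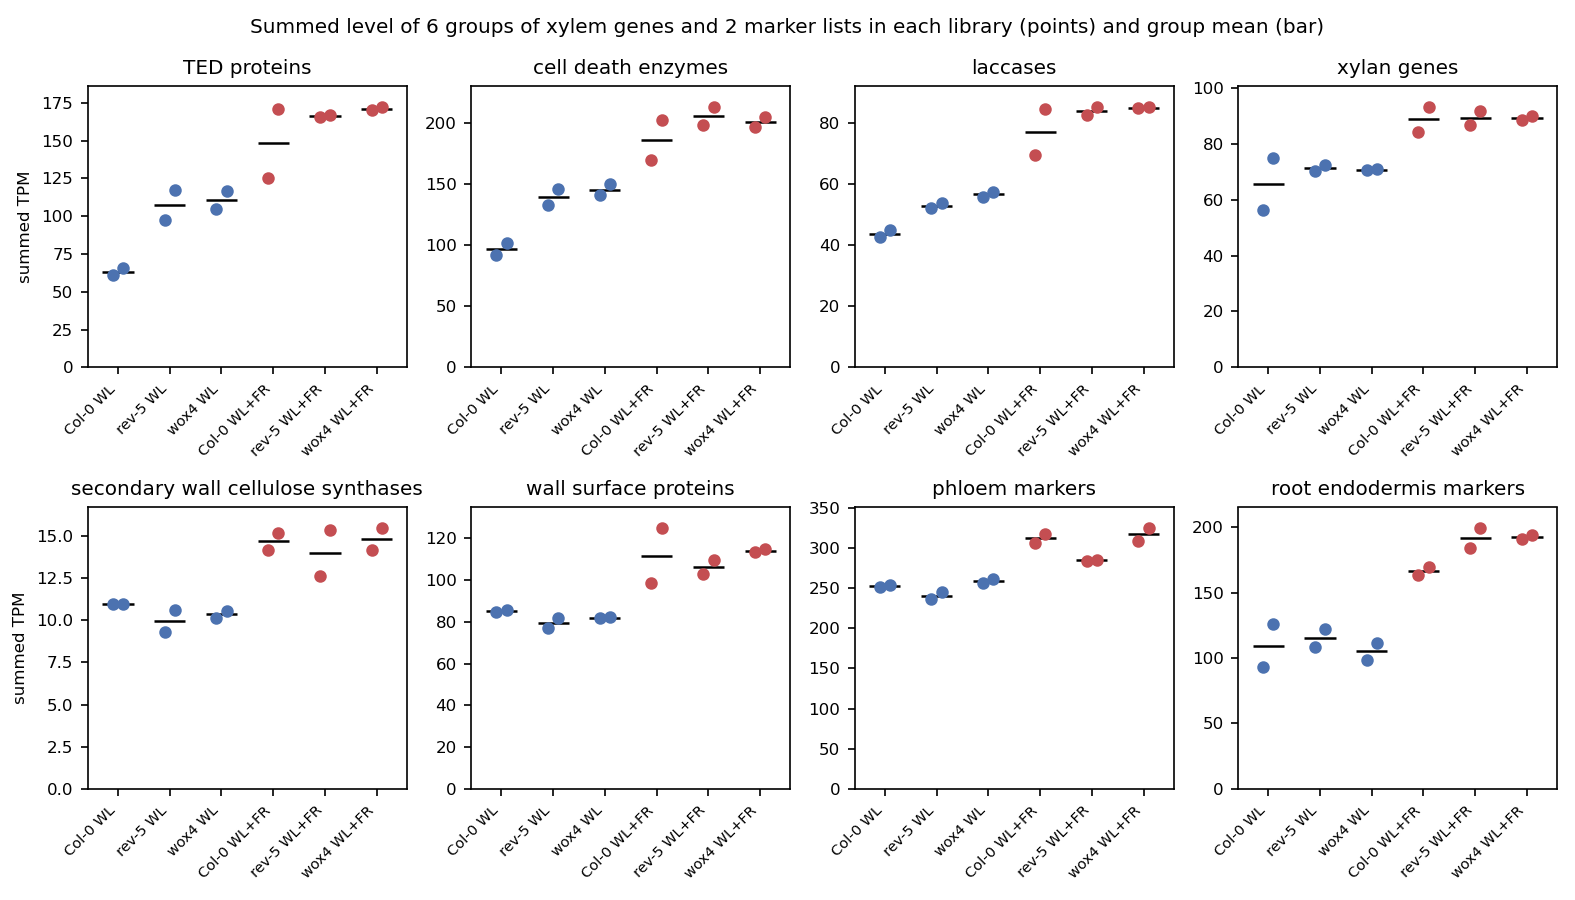
Summed TPM of 6 groups of xylem genes and of the phloem and root endodermis marker lists in each library (points, 2 per group; blue WL, red WL+FR) with the mean of each group (bar). The TED and cell death genes step up from Col-0 WL to the WL libraries of *rev-5* and *wox4* and again to WL+FR, whereas the cellulose synthases, at 9.28 to 10.98 TPM in WL and 12.6 to 15.5 TPM in WL+FR, and the markers differ mainly between the lights.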

How the data were processed

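The authors sequenced paired reads from seedlings in 12 libraries, grouped here by their titles, and per their methods aligned them with HISAT2 to TAIR10. They deposited 1 table of FPKM values per library, each value between 2 bounds, with the columns of a Cufflinks table, a program that the submitters' processing notes list beside Bowtie2 and FastQC. The fragments behind a value were estimated by taking these bounds as 2 SD of counting error.

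Each table held 32826 rows for 32824 genes, of which 32520 had the same start and end in the TAIR10.1 annotation. Positions are those of the tables, with starts counted from 1. TPM was FPKM divided by its sum in the library. Genes averaging 0.5 TPM or more were fitted across all genes as log2(TPM + 1), a scale that lessens the change of low genes, in limma 3.58.1 (R 4.3.3) with eBayes and a trend, and the fit was tested on simulated data. Of 100 genes simulated with an absolute log2 fold change of 0.5, 79 were recovered in the mean shade response and 17 in Col-0 alone. At a change of 1 these numbers were 100 and 91. The spread between simulated libraries was assumed. Python 3.11.15 was used for all else. Replicate numbers run from 1 to 12 and are shared by no groups, so libraries were not paired.

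The 35 genes and all other lists were chosen with earlier results of these data known. Values per library are given for genes called in at least 1 of 10 comparisons, and up to 5 called genes of each further pathway list could be named. From the lists given by counts only, 1 gene whose name did not match its identifier was dropped. The alternatives were a pseudocount of 0.1, no filter, FPKM, quantile normalization, no trend, only genes above 0 in all libraries, the study's thresholds and leaving out each library. A mean shade response over Col-0 and *rev-5* alone, from the fit to all 12 libraries, was added after the data were seen.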

Additional observations from a re-analysis of the deposited data

How the results depend on the processing

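Over the 12 fits that left out 1 library each, the number of the 30 tested xylem genes called in shade was 23 to 26 for the mean of the genotypes, 8 to 16 in Col-0, 2 to 13 in *rev-5*, and 4 to 14 in the libraries labelled *wox4*. Against Col-0 in WL it was 1 to 5 for *rev-5* but 0 to 3 for *wox4*, in WL+FR 0 to 1 for *rev-5*, and for both differences of shade responses 0 to 1. Under the study's thresholds, applied to the limma fit, the counts in shade were 0 for the mean, 4 in Col-0, 0 in *rev-5* as in *wox4* (0). In WL *rev-5* and *wox4* each had 0 against Col-0. The study, whose methods name DESeq2 and not limma, reported *TED7* as upregulated in both mutants. After quantile normalization the counts in shade were 11 for Col-0, 6 for *rev-5*, 4 for *wox4*, with 0 for *wox4* against Col-0 in WL. That last count was also 0 without the filter on low values, 0 in FPKM and 0 without a trend, but 4 with only genes above 0 in all libraries. Without a trend *rev-5* against Col-0 in WL had 2. The cause was not tested. No alternative turned the direction of a called gene. In a mean shade response over Col-0 and *rev-5* alone, taken from the fit to all 12 libraries, 22 genes kept their call and 3 lost it. No paired analysis was possible because replicate numbers are not shared between groups. A total of 2 libraries a group and few fragments for *VND7*, *XND1* and *BFN1* limit what could be called.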
